A study of Mus musculus with 16 samples.

Results

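Treated with IL-1β, palmitate or both, mouse fibroblasts of the gum (murine gingival fibroblasts, mGF) changed part of their myofibroblast genes, and not all in the same way. The 9 genes described here are the contractile genes Acta2, Tagln, Cnn1 and Myl9, the matricellular genes Ccn2 and Postn, and the TGF-β ligands Tgfb1, Tgfb2 and Tgfb3. They were chosen by symbol for these roles, with earlier results of these data known. All 9 were found among 56941 genes listed, and all 9 passed the filter on low counts that left 16306 genes for testing. Tgfb3 fell in every comparison with BSA, most with both agents, when it fell by 48.8%. Ccn2 rose with palmitate alone, by 25.4%, and did not do so when IL-1β was present. Acta2, the gene that defines the myofibroblast, differed from BSA by -9.58% with IL-1β, its largest difference from BSA with TMM normalization.

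A myofibroblast is a fibroblast that has built actin stress fibres and pulls on the matrix around it. TGF-β is secreted in a latent form, is set free by integrins and other proteins, and signals through its receptors and the SMAD factors to raise contractile and matrix genes. Serum response factor (SRF) with its MRTF partners, and YAP/TAZ with TEAD factors, raise many of the same genes when actin filaments assemble. In the gum these genes are known for their part in wound closure and in fibrotic overgrowth.

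The libraries came from primary cells grown out of explants taken beside the maxillary second molar of WT C57Bl6 mice 3 to 6 months old. They were kept in medium with 20% serum and used between passages 2 and 8. The 4 groups, with 4 libraries each, were BSA (the vehicle, 200 µM), IL-1β (1 ng/mL), palmitate (200 µM, complexed with BSA) and palmitate + IL-1β. A figure legend of the paper gives 24 h of treatment for the RNA sequencing. The labels do not say whether cells given IL-1β alone also received the BSA vehicle, while the paper describes BSA given both without and with IL-1β. If vehicle was absent, its absence and IL-1β could not be told apart in the comparison of IL-1β with BSA. The labels do not say whether replicates came from separate cultures or animals, so p-values measure the spread between these libraries, which may be technical.

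Between 21234789 and 92752515 counts per library fell on genes (median 27943964), and the deepest was palmitate replicate 10. All 10 of 10 fibroblast markers were detected, and they summed to 33337 to 35395 CPM (counts scaled to an equal library size) in BSA, 34872 to 35425 in IL-1β, 30627 to 32870 in palmitate and 29992 to 31769 with both agents. Most of the BSA sum was Col1a1 (14194 ± 346 CPM; SD, n = 4), Col1a2 (6943 ± 291), Vim (5659 ± 213) and Col3a1 (4954 ± 166). Lum and S100a4 stood at only 1.82 ± 0.184 and 2.67 ± 0.261 CPM there. With both agents 7 of the 10 markers were lower than in BSA and 1 higher, against 22.5% and 24.8% of all 16306 genes tested. Mitochondrial genes took 12.2% to 13.4% of counts in BSA, 11.4% to 14.0% in IL-1β, 11.9% to 13.2% in palmitate and 10.7% to 11.5% with both agents. Neither quantity overlapped between BSA and both agents, and the fibroblast marker sum also did not overlap between BSA and palmitate alone. The part of either quantity in the results was not tested. Markers of epithelium summed to at most 0.760 CPM, those of endothelium to 2.74, leukocyte to 3.28 and skeletal muscle to 1.64. A list of 9 smooth muscle and pericyte markers summed to 637 to 680 CPM in BSA and 617 to 663 in IL-1β, and to 574 to 609 with palmitate and 515 to 552 with both agents. Most of that sum was Pdgfrb, a receptor that fibroblasts carry too, at 379 ± 12.9 CPM in BSA (SD, n = 4). Of the others, Mcam stood at 103 ± 3.69, Smtn at 70.4 ± 4.05 and Cspg4 at 56.1 ± 6.10 CPM in BSA. Myh11 stood at 20.9 ± 0.277, Notch3 at 20.8 ± 1.26, Rgs5 at 4.26 ± 0.632 and Des at 1.57 ± 0.259 CPM there. Kcnj8 had no more than 2 counts in any library. The sum overlapped between BSA and IL-1β and was lower with palmitate and lowest with both agents, and its part in the contractile genes' values was not tested. In bulk RNA, fewer cells of a kind and less RNA per cell cannot be told apart.

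Scaled per kilobase of exon and to an equal sum in each library, the 9 genes covered a wide range in BSA. Postn stood highest, at 6370 ± 173 (rank 9 of 16245 genes), followed by Acta2 at 4586 ± 166 (rank 13) and Tagln at 1386 ± 58.5 (rank 48). Myl9 (548 ± 20.9), Ccn2 (278 ± 10.5) and Cnn1 (193 ± 8.16) came next. These are levels of abundant genes, among the top 443 of those tested. The ligands were lower, with Tgfb3 at 148 ± 6.21, Tgfb2 at 137 ± 7.47 and Tgfb1 at 21.1 ± 0.488 (rank 5094). Only Tgfb3 and Tgfb2 overlapped as neighbours in that order in BSA. With the length of the canonical transcript in place of all exons the order in BSA was the same, and that pair no longer overlapped. That length gave Postn a level of 11734 in place of 6370 in BSA. In palmitate + IL-1β, Cnn1 overlapped Tgfb2 by either length, and Postn overlapped Acta2 by merged exons but stood 2.80-fold above it by the canonical transcript.

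**Figure D1:**
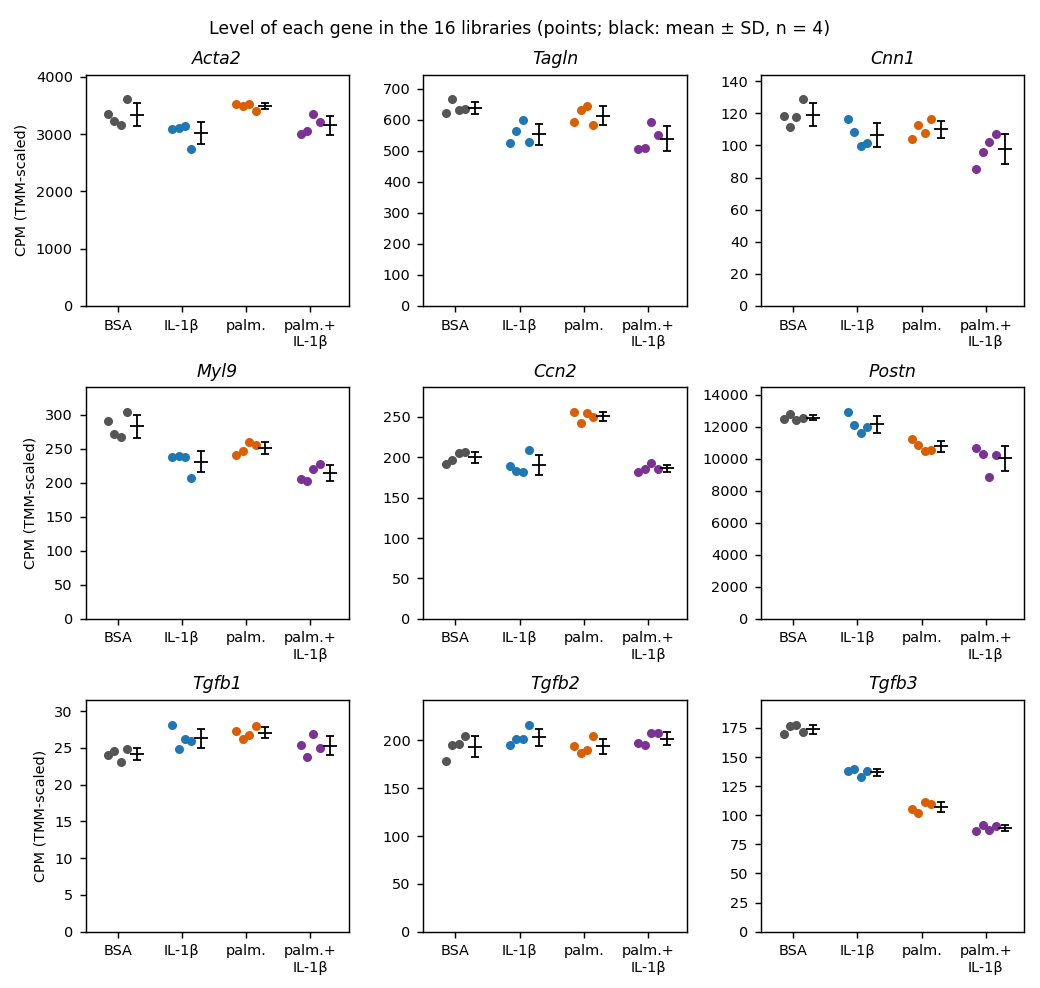
Each panel plots the level of 1 gene (CPM on TMM-scaled library sizes, linear axis from 0) in the 4 libraries of each group as points, with the mean and SD (n = 4) in black. Tgfb3 steps down from 174 CPM in BSA to 89.0 in palmitate + IL-1β, Ccn2 stands higher in palmitate only, and the contractile genes differ by smaller steps.

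The contractile genes fell mostly where IL-1β was present, and not all of them did. Acta2 (chromosome 19, 34217737 to 34232990, GRCm39, minus strand) encodes α-smooth muscle actin, the filament of contractile stress fibres. Its BSA libraries held 3353, 3235, 3156 and 3607 CPM, and those of IL-1β 3087, 3098, 3148 and 2739. Palmitate libraries held 3527, 3490, 3527 and 3404 CPM and those with both agents 2998, 3047, 3350 and 3211. The IL-1β libraries lay below the lowest BSA library, replicate 8 (2739 CPM) by far the most, whereas palmitate libraries lay within the range of BSA. Acta2 fell by 9.58% with IL-1β (log2 fold change -0.15 ± 0.05 (SE); edgeR, adjusted p = 0.0349). That call was lost on leaving out BSA replicate 1, BSA replicate 4 or IL-1β replicate 8, with adjusted p of 0.0726, 0.164 and 0.172 in edgeR, and when only the 8 libraries compared were fitted (edgeR, adjusted p = 0.0727). The difference was 0.06 (95% interval -0.03 to 0.16) with palmitate and -0.08 (-0.18 to 0.01) with both agents, and neither passed the test. With both agents Acta2 did pass under upper-quartile normalization (-0.16; edgeR, adjusted p = 0.00493) and with no filter on low counts (-0.12; edgeR, adjusted p = 0.0188).

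Tagln (chromosome 9, 45840909 to 45847404, minus strand) encodes transgelin, which cross-links actin and is an early marker of the smooth muscle program. It held 621, 666, 630 and 635 CPM in BSA and 525, 563, 598 and 528 in IL-1β. With palmitate the libraries held 591, 630, 646 and 582 CPM, and with both agents 505, 509, 594 and 550. All libraries with IL-1β, alone or with palmitate, were below the lowest BSA library. Tagln fell by 13.3% with IL-1β (log2 -0.21 ± 0.05; edgeR, adjusted p = 0.0047) and fell by 15.4% with both agents (log2 -0.24 ± 0.05; edgeR, adjusted p = 0.000196). Against BSA, palmitate alone gave -0.06 (95% interval -0.16 to 0.04), which did not pass, and -0.13 under upper-quartile normalization, which did (edgeR, adjusted p = 0.0442).

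Cnn1 (chromosome 9, 22010512 to 22020926, plus strand) encodes calponin, an actin-binding inhibitor of myosin. Levels were 118, 111, 118 and 129 CPM in BSA and 116, 108, 99.5 and 102 in IL-1β, which overlapped. They were 104, 112, 108 and 116 CPM in palmitate and 85.2, 96.2, 102 and 107 in palmitate + IL-1β. The libraries with both agents all lay below those of BSA. The fall with both was 18.1% (log2 -0.29 ± 0.06; edgeR, adjusted p = 0.000353). Differences of -0.16 ± 0.06 with IL-1β and -0.11 ± 0.06 with palmitate did not pass (edgeR, adjusted p = 0.0786 and 0.167). Under upper-quartile normalization both passed, at -0.21 and -0.18 (edgeR, adjusted p = 0.0257 and 0.0258). Cnn1 with IL-1β also passed with no filter (edgeR, adjusted p = 0.00743) and without IL-1β replicate 5 or palmitate + IL-1β replicate 13 (edgeR, adjusted p = 0.0244 and 0.0419).

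Myl9 (chromosome 2, 156617084 to 156623579, plus strand) encodes the regulatory light chain through which non-muscle and smooth muscle myosin is switched on. It held 290, 272, 267 and 304 CPM in BSA and 238, 240, 238 and 208 in IL-1β. In palmitate it held 242, 247, 261 and 256 CPM, and with both agents 206, 203, 221 and 228. No treated library reached the lowest BSA library. Myl9 was the contractile gene that passed in each of the 3 comparisons with BSA. It fell by 18.5% with IL-1β (edgeR, adjusted p = 6.74e-05), by 11.3% with palmitate (edgeR, adjusted p = 0.00659) and by 24.3% with both (log2 -0.40 ± 0.05; edgeR, adjusted p = 6.69e-08).

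SRF binds the CArG box, and Acta2 and Myl9 are textbook SRF genes, so the 250 bases before their start sites are shown, with CArG boxes and boxes that differ in 1 central base in capitals. The windows are from RefSeq on GRCm38.p6, a different build from that of the counts. The window of Acta2 is chr19:34255374-34255623 on the minus strand and that of Myl9 is chr2:156775214-156775463 on the plus strand.
Acta2: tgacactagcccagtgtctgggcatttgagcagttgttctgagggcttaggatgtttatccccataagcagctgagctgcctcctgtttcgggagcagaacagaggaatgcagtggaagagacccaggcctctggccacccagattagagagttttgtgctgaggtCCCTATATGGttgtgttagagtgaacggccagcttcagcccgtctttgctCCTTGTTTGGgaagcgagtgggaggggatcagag
Myl9: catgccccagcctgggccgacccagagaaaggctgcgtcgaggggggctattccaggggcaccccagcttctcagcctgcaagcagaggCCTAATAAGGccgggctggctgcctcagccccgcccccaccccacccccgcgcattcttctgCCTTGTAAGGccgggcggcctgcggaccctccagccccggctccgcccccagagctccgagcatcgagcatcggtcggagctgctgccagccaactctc
An exact CArG box was found in Myl9, 161 to 152 bases before the start, and such a box stands in 1.47% of 32851 windows of this length, read on both strands. Boxes with 1 other central base were found in Acta2 at 84 to 75 and 34 to 25 bases before the start and in Myl9 at 99 to 90, and 7.24% of windows hold one. This relaxed form was added after the exact search had been seen. The SMAD motif CAGAC, also read as GTCTG, stood in the windows of Acta2, Postn and Tgfb2, against 42.2% of all windows. The TEAD motif GGAATG, also read as CATTCC, stood in Acta2, against 12.6% of all. Windows of 6 of the 9 genes were in the table (those of Acta2, Cnn1, Myl9, Postn, Tgfb1 and Tgfb2), and a match is a description of letters, not of a site in use.

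The matricellular genes went separate ways. Ccn2 (chromosome 10, 24471333 to 24474900, plus strand), formerly Ctgf, encodes a secreted cofactor of TGF-β that both SMADs and YAP/TAZ induce. Its BSA libraries held 192, 196, 206 and 206 CPM and its IL-1β libraries 189, 183, 182 and 209. Palmitate libraries held 256, 243, 254 and 250 CPM, and those with both agents 181, 186, 192 and 186. The palmitate libraries stood apart above all 12 others, which overlapped each other. Ccn2 rose by 25.4% with palmitate (log2 0.33 ± 0.04; edgeR, adjusted p = 2.96e-07). Against BSA, palmitate + IL-1β gave -0.10 ± 0.04, which did not pass (edgeR, adjusted p = 0.0566), although it passed under each of 6 other settings, at -0.18 to -0.11. IL-1β alone gave -0.07 (95% interval -0.16 to 0.02).

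Postn (chromosome 3, 54268501 to 54298471, plus strand) encodes periostin, a matrix protein of the gum and periodontal ligament that binds collagen. BSA libraries held 12507, 12805, 12419 and 12535 CPM and IL-1β libraries 12906, 12081, 11625 and 11959. Those of palmitate held 11229, 10849, 10493 and 10556 CPM, and those with both agents 10642, 10288, 8888 and 10251. All 8 libraries with palmitate were below all 8 without it. Postn fell by 14.2% with palmitate (log2 -0.22 ± 0.05; edgeR, adjusted p = 0.00022) and by 20.3% with both agents (log2 -0.33 ± 0.05; edgeR, adjusted p = 4.43e-07). IL-1β alone gave -0.05 (95% interval -0.14 to 0.04).

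The 3 ligands are made as latent dimers by different genes, and they did not move together. Tgfb3 (chromosome 12, 86102756 to 86126301, minus strand) held 170, 177, 177 and 171 CPM in BSA. IL-1β libraries held 138, 140, 133 and 138 CPM, palmitate libraries 106, 102, 112 and 109, and those with both agents 86.4, 91.6, 87.7 and 90.4. The 4 groups formed 4 separate steps with no overlap. Tgfb3 fell by 21.1% with IL-1β (log2 -0.34 ± 0.04; edgeR, adjusted p = 1.32e-07), by 38.5% with palmitate (log2 -0.70 ± 0.04; edgeR, adjusted p = 2.06e-15) and by 48.8% with both (log2 -0.97 ± 0.04; edgeR, adjusted p = 4.98e-19). Its fall was the largest of the 9 genes in each of these comparisons.

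Tgfb1 (chromosome 7, 25386390 to 25404506, plus strand), the ligand most studied in fibrosis, held 24.003, 24.6, 23.1 and 24.9 CPM in BSA and 28.1, 24.9, 26.3 and 25.9 in IL-1β. Palmitate libraries held 27.3, 26.2, 26.7 and 28.02 CPM and those with both agents 25.4, 23.8, 26.9 and 25.0. Palmitate libraries lay above those of BSA, while those with IL-1β overlapped BSA. Tgfb1 rose by 11.8% with palmitate (log2 0.16 ± 0.05; edgeR, adjusted p = 0.0188). The call was lost without BSA replicate 1, BSA replicate 3 or palmitate replicate 12 (edgeR, adjusted p of 0.0564 to 0.061), under upper-quartile normalization (edgeR, adjusted p = 0.194) and with no filter (edgeR, adjusted p = 0.106). Tgfb2 (chromosome 1, 186354985 to 186438294, minus strand) had group means of 194 to 203 CPM that overlapped throughout. Its differences from BSA were 0.07 (95% interval -0.02 to 0.17) with IL-1β, 0.0036 (-0.09 to 0.10) with palmitate and 0.06 (-0.03 to 0.15) with both.

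The make-up of the ligand transcripts therefore shifted. Of the summed reads per kilobase of the 3 ligands, Tgfb3 held 48.3% ± 1.25 in BSA, 41.1% ± 0.978 in IL-1β, 36.1% ± 0.971 in palmitate and 31.4% ± 1.05 with both agents (SD, n = 4). Tgfb2 went from 44.8% ± 1.31 in BSA to 59.4% ± 0.757 with both agents. Tgfb1 held 6.89% ± 0.282 and 9.16% ± 0.395 in the same groups. Tgfb2 and Tgfb3 overlapped as levels in BSA, and Tgfb2 stood above Tgfb3 without overlap in each treated group, by 1.24-fold, 1.51-fold and 1.89-fold. The summed level went from 306 ± 11.6 on that scale in BSA to 285 ± 16.1 in IL-1β, 243 ± 6.17 in palmitate and 240 ± 1.35 with both. With the canonical transcript length, Tgfb3 held 46.6% in BSA and 30.01% with both agents, and Tgfb1 held 12.1% and 16.0%.

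**Figure D2:**
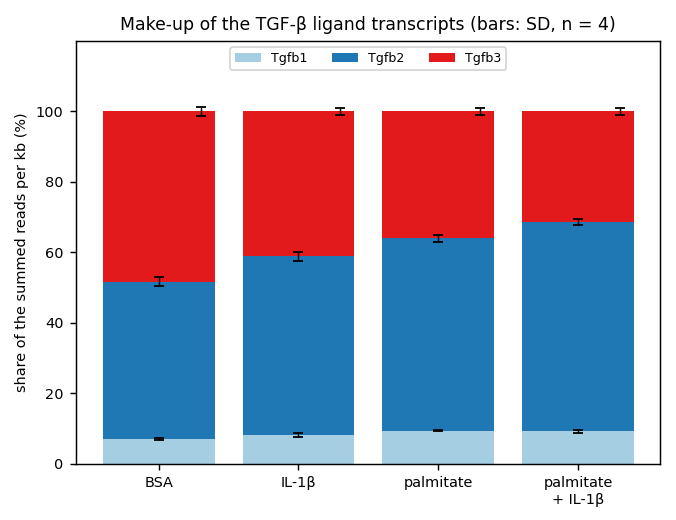
Stacked bars show the share (%) of Tgfb1, Tgfb2 and Tgfb3 in their summed reads per kilobase of exon in each group, as means of 4 libraries with error bars of 1 SD at the upper edge of each segment. The Tgfb3 segment shrinks from 48.3% in BSA to 31.4% in palmitate + IL-1β while that of Tgfb2 grows from 44.8% to 59.4%.

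Counted together, 4 of the 9 genes fell and none rose with IL-1β against BSA, where 15.1% of all 16306 genes passed the test, 10.1% as higher and 4.97% as lower. With palmitate 2 rose and 3 fell, against 37.3% of all genes passing, 19.8% as higher and 17.5% as lower. With both agents 5 fell and none rose, against 47.3% of all genes, 24.8% as higher and 22.5% as lower. The medians over the 9 genes were -0.15, -0.06 and -0.24 on the log2 scale, and those over all genes -0.0049, -0.0030 and 0.0017. With both agents the 9 genes passed about as often as genes at large, 55.6% against 47.3%. Libraries did not overlap with those of BSA for 4 genes in IL-1β, 5 in palmitate and 5 with both agents, against 17.6%, 36% and 41.5% of all genes. The same 4 BSA libraries enter all 3 comparisons.

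**Figure D3:**
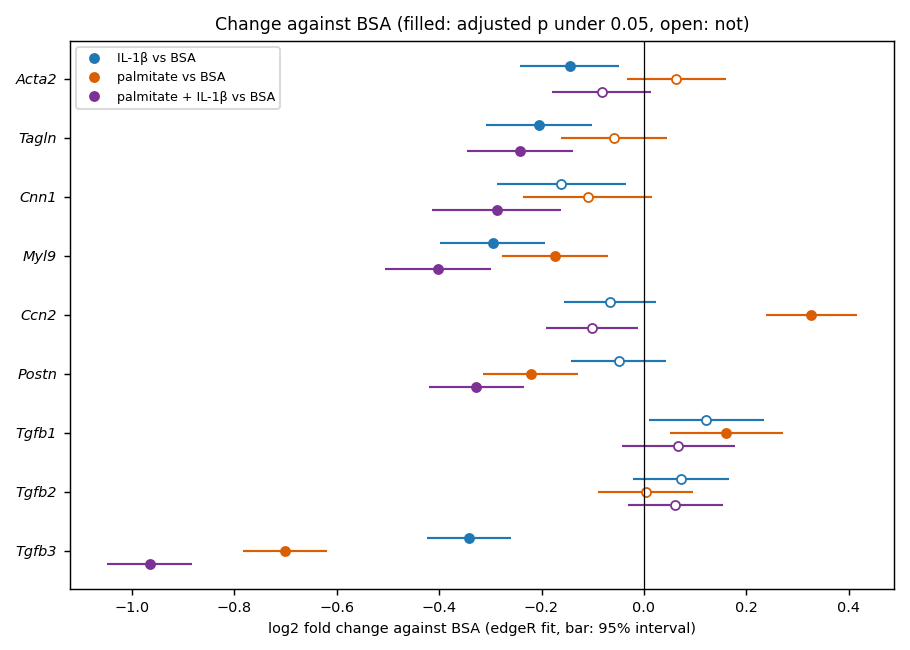
Log2 fold changes against BSA from the edgeR fit are plotted for the 9 genes with 95% intervals, in blue for IL-1β, orange for palmitate and purple for palmitate + IL-1β, with filled points for an adjusted p under 0.05. Tgfb3 lies farthest to the left, down to -0.97, and Ccn2 under palmitate lies farthest to the right, at 0.33.

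Adding IL-1β to palmitate lowered 5 of the 9 genes, where 9.81% of all genes passed, 5.71% as higher and 4.1% as lower. Ccn2 fell by 25.7% (log2 -0.43 ± 0.04; edgeR, adjusted p = 1.6e-08), Tgfb3 fell by 16.7% (edgeR, adjusted p = 2.51e-05) and Myl9 fell by 14.6% (edgeR, adjusted p = 0.00257). Tagln fell by 11.9% (edgeR, adjusted p = 0.0171) and Acta2 fell by 9.63% (edgeR, adjusted p = 0.046). The calls for Acta2 and Tagln were less steady than the other 3. That of Acta2 was lost in 11 of 16 fits that each left out 1 library, and that of Tagln in 4 (without palmitate replicates 10 or 11, or palmitate + IL-1β replicates 13 or 14). Both calls were lost together in those 4, leaving 3 genes. Cnn1 gave -0.18 ± 0.06 (edgeR, adjusted p = 0.0671). The libraries did not overlap for 4 genes (Acta2, Myl9, Ccn2 and Tgfb3), against 16.7% of all genes.

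Adding palmitate to IL-1β lowered 2 genes, where 35% of all genes passed, 18.9% as higher and 16.1% as lower. These were Tgfb3, by 35.1% (log2 -0.62 ± 0.04; edgeR, adjusted p = 7.49e-14), and Postn, by 17.5% (log2 -0.28 ± 0.05; edgeR, adjusted p = 1.12e-05). Those 2 were also the genes without overlap, against 31.3% of all genes. The count was 4 with no filter on low counts and without palmitate + IL-1β replicate 16, when Cnn1 and Myl9 also passed. Between the single agents, where 31.6% of all genes passed, 16.5% as higher and 15.2% as lower, 3 genes were higher in palmitate than in IL-1β and 2 lower. Libraries did not overlap for 5 genes (Acta2, Myl9, Ccn2, Postn and Tgfb3), against 31.1% of all. Of these, Myl9 was 8.82% higher in palmitate and did not pass (edgeR, adjusted p = 0.0658). Ccn2 was 31.4% higher, Acta2 15.6% and Tagln 10.7%, with overlapping libraries for Tagln, while the difference was -0.36 for Tgfb3 and -0.17 for Postn on the log2 scale. The call for Tagln was lost under upper-quartile normalization (edgeR, adjusted p = 0.0598) and without IL-1β replicates 5 or 8 or palmitate replicates 10 or 11 (edgeR, adjusted p of 0.0832 to 0.106).

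Whether the effect of palmitate differed with IL-1β present was tested as an interaction, which 1.99% of all genes passed, 0.159% as higher and 1.83% as lower. Among the 9 genes Ccn2 passed, at -0.36 ± 0.06 on the log2 scale (95% interval -0.49 to -0.24; edgeR, adjusted p = 0.000308). Palmitate raised it by 0.33 without IL-1β, and with IL-1β the difference was -0.03 ± 0.04. The interaction lay between -0.39 and -0.31 over 16 fits that each left out 1 library. The other 8 genes did not pass. For Tgfb3 the interaction was 0.08 (95% interval -0.04 to 0.19), and for Postn -0.06 (-0.19 to 0.08). Tgfb1 came nearest to the threshold, at -0.22 ± 0.08 (edgeR, adjusted p = 0.215).

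**Figure D4:**
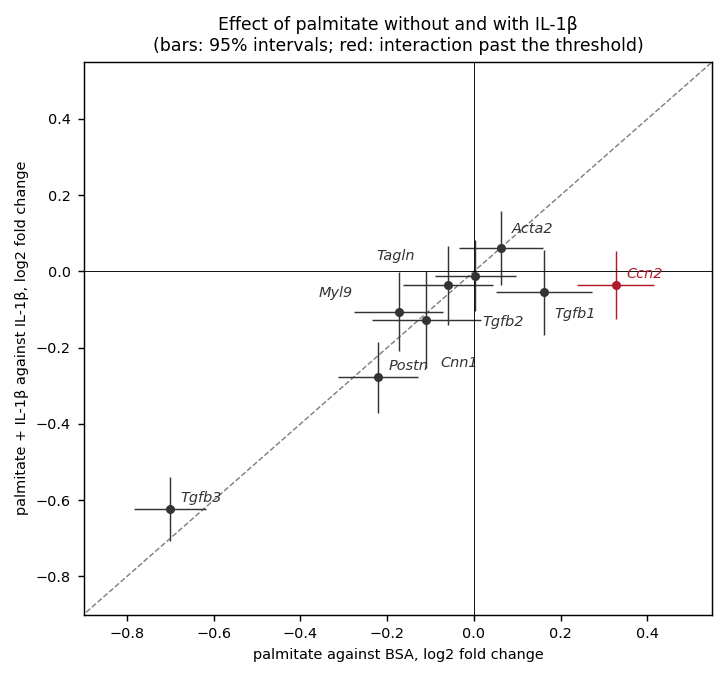
The log2 fold change of palmitate against BSA (x axis) is plotted against that of palmitate + IL-1β over IL-1β (y axis) for the 9 genes, with 95% intervals and a dashed line of equality. Ccn2, in red, lies at 0.33 on the x axis and -0.03 on the y axis, and the other 8 genes have an interaction that did not pass.

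The machinery that holds TGF-β latent and sets it free changed in both directions. Counts for this and the following lists are read against the shares of all genes that passed, 10.1% higher and 4.97% lower with IL-1β, 19.8% and 17.5% with palmitate, and 24.8% and 22.5% with both. Of 13 tested genes of a list of 14, 5 rose and 2 fell with IL-1β, 5 rose and 3 fell with palmitate, and 5 rose and 4 fell with both, with medians of 0.07, 0.12 and 0.12 on the log2 scale. Lrrc32, which encodes GARP, the anchor of latent TGF-β at the cell surface, stood at 59.3 ± 2.39 CPM in BSA, 70.6 ± 2.11 in IL-1β, 128 ± 2.36 in palmitate and 93.6 ± 2.84 with both. It rose 2.17-fold with palmitate (edgeR, adjusted p = 3.56e-20), and its interaction of -0.71 ± 0.06 passed (edgeR, adjusted p = 3.23e-10). Like that of Ccn2, its rise with palmitate was smaller when IL-1β was present. Fbn1, fibrillin, on which latent complexes are stored, rose 1.44-fold, 1.45-fold and 1.63-fold in the 3 comparisons, with IL-1β libraries spread from 1644 to 2401 CPM. Ltbp2, a latent TGF-β binding protein family member, rose 1.23-fold with IL-1β. Thbs1, a matrix protein that can activate latent TGF-β, went from 7420 ± 435 CPM in BSA to 5228 ± 257 in palmitate and 5085 ± 230 with both.

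Among 9 receptors and co-receptors, 1 rose and 2 fell with IL-1β, 2 rose and 4 fell with palmitate, and 1 rose and 5 fell with both, with medians of -0.05, -0.13 and -0.15. Tgfbr3, betaglycan, a co-receptor that binds all 3 ligands and Tgfb2 most of all, rose from 35.1 ± 2.50 CPM in BSA to 48.1 ± 2.25 in IL-1β, 100.1 ± 4.09 in palmitate and 100.8 ± 3.80 with both. Its interaction was -0.44 ± 0.07 (edgeR, adjusted p = 9.26e-05). The receptors that carry the signal moved less. Tgfbr1 fell by 10.2% with IL-1β (edgeR, adjusted p = 0.0152), and Tgfbr2 fell by 23.8% with both agents (edgeR, adjusted p = 5.01e-09). Bambi, a decoy receptor, fell from 3.86 ± 0.315 CPM in BSA to 1.94 ± 0.176 with palmitate. Acvr1b, an activin receptor, rose 1.22-fold with palmitate.

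Of 14 SMADs and regulators, 3 rose and 3 fell with IL-1β, 5 and 4 with palmitate, and 5 and 4 with both, with medians of 0.02, 0.08 and 0.04. Smad6, an inhibitory SMAD, stood at 15.7 ± 1.10 CPM in BSA, 12.4 ± 1.05 in IL-1β, 11.0 ± 0.524 in palmitate and 6.86 ± 0.210 with both. Smad3, which carries the TGF-β signal to DNA, fell by 31.9% with both agents (edgeR, adjusted p = 3.02e-11). Tgif1, a co-repressor of SMADs, rose 1.71-fold with both (edgeR, adjusted p = 3.15e-15), and Smurf1, a ubiquitin ligase, rose 1.36-fold with palmitate (edgeR, adjusted p = 5.7e-09).

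Genes known to be induced by TGF-β also split. Of 13 tested of 14, 5 rose and 2 fell with IL-1β, 5 and 5 with palmitate, and 6 and 6 with both, with medians of 0.03, 0.09 and 0.08. Cdkn2b, an inhibitor of the cell cycle, rose 1.91-fold with both agents. Bhlhe40, a transcription factor, rose 1.73-fold with palmitate, and Fn1 and Tnc, the matrix proteins fibronectin and tenascin-C, rose 1.33-fold each with IL-1β. Nox4, an oxidase induced in myofibroblasts, fell from 32.4 ± 1.97 CPM in BSA to 20.6 ± 0.818 with palmitate and 19.9 ± 0.964 with both. The interaction passed for Tnc (-0.38 ± 0.07) and Bhlhe40 (-0.43 ± 0.06), which were named for that call after their values were seen.

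The list closest to the contractile genes, 26 tested of 28 actin and SRF/MRTF genes, had more that fell than rose in each comparison with BSA. With IL-1β 12 fell and 2 rose, with palmitate 10 fell and 5 rose, and with both 14 fell and 5 rose, with medians of -0.16, 0.0089 and -0.17. Lmod1, which nucleates actin filaments, fell from 49.5 ± 4.35 CPM in BSA to 31.8 ± 2.64 in IL-1β, 35.4 ± 1.16 in palmitate and 22.6 ± 3.33 with both. Fhl2, an adaptor at focal adhesions, fell from 36.1 ± 2.34 to 21.5 ± 0.618 with palmitate and 15.6 ± 0.938 with both, and Zyx, zyxin of stress fibres, from 225 ± 5.19 to 119 ± 4.88 with both. Mylk, the kinase that phosphorylates Myl9, fell by 20.2% with IL-1β (edgeR, adjusted p = 2.29e-05). Tagln2, a relative of Tagln, rose 1.61-fold with palmitate (edgeR, adjusted p = 1.12e-14). Adding IL-1β to palmitate lowered 14 of the 26 and raised none (median -0.17), where 4.1% of all genes were lower and 5.71% higher.

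Acta2 has close relatives on this list. The longest matches of its transcript were 85.6% identical to Acta1 over 1135 bases and 83.99% to Actg2 over 1149 bases, and none reached 95% identity. For the canonical transcripts of the 9 genes, at most 1.95% of the bases matched another gene at 95% identity or more. Actg2 stood at 393 ± 21.8 CPM in BSA, 351 ± 13.1 in IL-1β, 412 ± 8.20 in palmitate and 365 ± 20.2 with both, and Acta1 at 22.9 ± 0.713, 19.3 ± 1.93, 16.9 ± 0.505 and 14.8 ± 0.846. Actg2 passed as lower with IL-1β (log2 -0.16 ± 0.05; edgeR, adjusted p = 0.0137), the comparison with BSA in which Acta2 also passed.

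**Figure D5:**
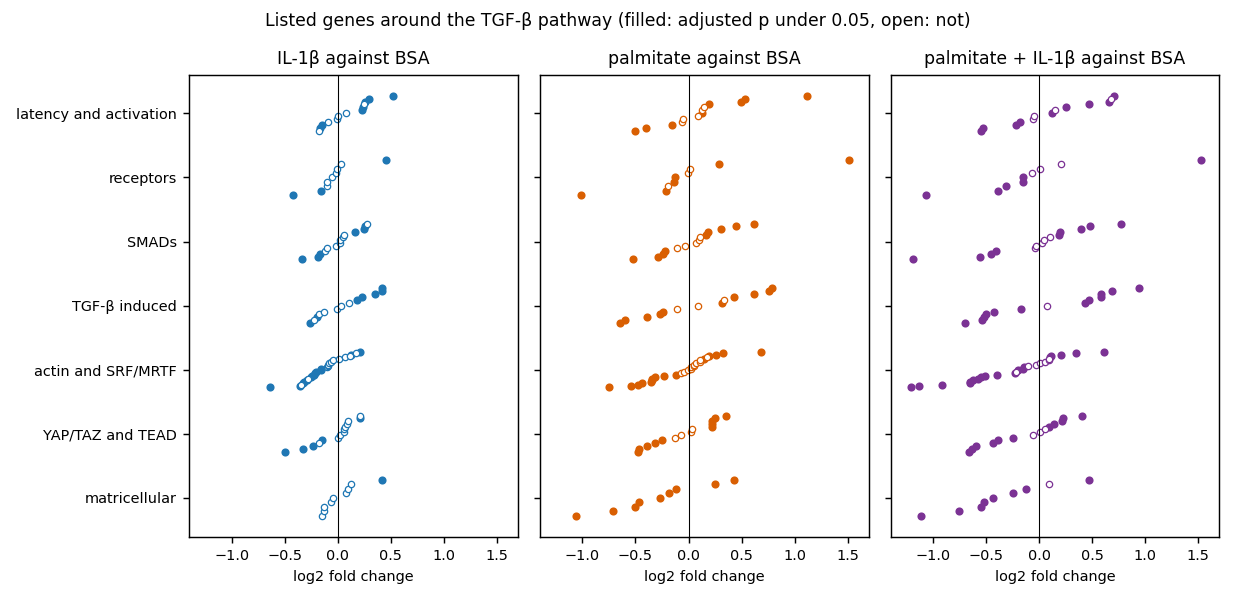
Each point is a gene of a pathway list, placed by its log2 fold change against BSA in IL-1β (left), palmitate (middle) and palmitate + IL-1β (right), filled where the adjusted p was under 0.05. Points of the actin and SRF/MRTF list lie mostly left of 0 with both agents (14 fell and 5 rose), and the receptor list reaches from -1.07 (Bambi) to 1.52 (Tgfbr3) there.

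Of 14 YAP/TAZ and TEAD genes, 1 rose and 4 fell with IL-1β, 5 and 5 with palmitate, and 5 and 6 with both, with medians of 0.04, -0.02 and -0.03. Tead3, a DNA-binding partner of YAP, fell from 29.5 ± 1.38 CPM in BSA to 23.6 ± 0.579, 21.2 ± 1.47 and 19.0 ± 1.27 in the 3 treated groups. Tead4 fell by 29.3% with IL-1β. Ccn1, a relative of Ccn2 and also a YAP target, fell by 27.7% with palmitate (edgeR, adjusted p = 5.97e-07), where Ccn2 rose. Ankrd1, another target, fell by 23.7% with palmitate, and Ajuba, an adaptor of the Hippo pathway, by 33.7% with both. The 5 genes of the list that rose with palmitate were Yap1 (0.25), Tead1 (0.35), Amotl2 (0.22), Axl (0.22) and Crim1 (0.22). They were named after their values were seen. They share with Ccn2 the direction under palmitate alone. The interaction, which Ccn2 passed, was passed by 0 of the 14 genes of the list, against 1.99% of all genes.

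Other matricellular genes were counted in the same way, against 19.8% of all genes higher and 17.5% lower with palmitate. Of 9 tested of 10, 1 rose and none fell with IL-1β, 2 rose and 7 fell with palmitate, and 1 rose and 7 fell with both, with medians of -0.04, -0.27 and -0.44. Ccn3 fell from 26.0 ± 0.838 CPM in BSA to 12.6 ± 1.14 with palmitate and 12.0 ± 1.22 with both. Thbs2, a thrombospondin, fell by 38.8% with palmitate (edgeR, adjusted p = 4.09e-13). The gene that rose with IL-1β and with both was Tnc, and Tnc, Ccn1, Tgfbi and Thbs1 each stand on another list as well.

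Genes whose levels followed each of the 9 most closely were found by Pearson's r of log2 CPM over the 16 libraries, which share groups and depth, so r is a description. Tgfb3 was followed by Cdkn1b (r = 0.987), Cd248 (0.983) and Pth1r (0.983), where Cd248, a surface glycoprotein of stromal cells, went from 775 CPM in BSA to 654, 466 and 394. Postn was followed by Zfp354c (0.954), Pde8a and Bicc1 (0.951 each). Ccn2 was nearest to Sox11 (0.941), which stood at 51.6 CPM in BSA, 50.2 in IL-1β, 71.8 in palmitate and 52.1 with both, then to Dcbld2 (0.915) and Slc39a10 (0.893). Myl9 was nearest to Lmod1 (0.953), Tle5 and Midn, and Cnn1 to Cacna1a (0.870), Lmod1 and Lmo7. Acta2 was nearest to Emp3 (0.929), Atp5a1 and Pwwp3a, and Tagln to Cfl1 (0.894), the actin-severing cofilin, Atf5 and Atp5g3. Tgfb1 had no close match, the highest being Fam83c at 0.785, a gene under 0.5 CPM in every group mean. Tgfb2 passed in no comparison and was not matched. Among the 9 genes, r was 0.843 between Cnn1 and Myl9, 0.824 between Tagln and Myl9, and 0.886 between Postn and Tgfb3, while Acta2 and Tgfb3 were at -0.0032.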

How the data were processed

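Bulk RNA of mGF was measured in 16 libraries, 4 per group, with groups taken from the labels of the samples. Per the labels and the study's methods, the authors trimmed reads with Trimmomatic 0.39, aligned them with STAR 2.7.10a to GRCm39 and counted them per gene by strand with HTSeq 2.0.9. The deposited values are raw counts. Library chemistry is given as stranded total RNA by the labels, while the methods describe oligo(dT)-primed cDNA, which bears on what RNA was captured. Of the 9 genes, 8 overlap another gene, on the opposite strand in each case, and Tgfb1 overlaps none. The largest overlaps took 60.7% of the exon bases of Tagln (with Gm48529), 36.5% of Ccn2 (Gm15270) and 35.1% of Cnn1 (Elof1). If the libraries were not stranded, reads of the overlapping genes would not be kept apart, which was not tested. The 5 summary rows that name no gene (18.3% to 21.4% of each library) were left out. No 2 replicates were alike within sampling noise (chi-square per degree of freedom 2.66 to 19.8 over 24 pairs).

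Counts of all 16 libraries were fitted together in edgeR 4.0.16 (R 4.3.3) with TMM factors (0.970 to 1.04), filterByExpr (minimum count 10, minimum total 15) and the robust quasi-likelihood test, with a mean per group. P-values were adjusted by Benjamini-Hochberg over 16306 genes, at a threshold of 0.05. Replicates varied by 6.08% (common biological coefficient of variation). Fold changes come from the fit, and n is 4 for each mean ± SD. Levels per kilobase used merged exons of GENCODE vM39, scaled to an equal sum per library. The counting floor of 3 counts equals 0.0331 to 0.146 CPM on the TMM-scaled library sizes. That floor covers only the error of counting, as no molecular tags told PCR copies apart, and the 95% intervals of fold changes come from the fit. Alternatives were DESeq2 1.42.0, its size factors in edgeR, upper-quartile normalization, no filter, at least 10 counts in every library, only the 8 libraries compared, each library left out, and the canonical transcript length, the last added after the data were seen. The steps were tested on simulated data.

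The 9 genes and the lists were chosen with earlier results of these data known. Named genes are those 9 in every comparison and, per list and comparison with BSA, up to 3 with the largest change among genes past the threshold, with libraries that do not overlap and an average log2 CPM of at least 1. For each of the 9 past the threshold in any comparison, the 3 genes with the highest r over the libraries were added, and relatives of Acta2. A gene that the rule names is not reported here, while the counts over its list include it. Transcripts were compared with blastn (BLAST+ 2.17.0).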

Additional observations from a re-analysis of the deposited data

Results flagged for a closer look

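Of 36 sets of 4 libraries checked (9 genes in 4 groups), 2 had a library apart from the other 3 by Dixon's test, and chance alone sets apart about 1 in 20. Both were IL-1β replicate 8, with Acta2 at 2739 CPM against 3087 to 3148 in the others and Myl9 at 208 CPM against 238 to 240. Without that library Acta2 no longer passed against BSA (-0.10; edgeR, adjusted p = 0.172), and Myl9 then also passed as lower for palmitate + IL-1β against IL-1β (-0.15; edgeR, adjusted p = 0.0153). The effect of palmitate on Ccn2 differed between cells with and without IL-1β by -0.36 on the log2 scale, by the interaction term.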

How the results depend on the processing

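No paired analysis was possible because the libraries are numbered 1 to 16 and no number is shared between groups. Over 1377 checks of the 9 genes (7 comparisons, under other settings and with each library left out), 1277 kept their direction and their side of the threshold, 42 changed sign, 29 lost and 29 gained a call. All of the changes of sign were in values that passed in no fit.

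For palmitate + IL-1β against IL-1β, the count of genes that passed was 4 with no filter and 2 to 4 with a library left out. Against palmitate it was 3 to 5 with a library left out. Upper-quartile normalization turned Acta2 with palmitate to -0.0058, Tgfb1 and Tgfb2 with both agents to -0.0114 and -0.0173, and the interactions of Acta2, Cnn1 and Tgfb2 to 0.0358, 0.0195 and 0.0223. At least 10 counts in every library turned the interaction of Acta2 to 0.0063. Tgfb2 with palmitate was -0.0022 (DESeq2), -0.0654 (upper quartile), -0.002 (DESeq2 size factors in edgeR), -0.013 (no filter), -0.0155 (at least 10 counts) and -0.0042 (8 libraries).

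With each library left out, Tgfb2 with palmitate ranged from -0.0452 to 0.0329, and for both agents against IL-1β Ccn2 ranged from -0.0663 to 0.0123 and Tgfb2 from -0.0305 to 0.0197. Interactions ranged from -0.0441 to 0.0253 (Acta2), -0.0259 to 0.0592 (Tagln), -0.0624 to 0.0418 (Cnn1) and -0.0428 to 0.0257 (Tgfb2). Upper-quartile normalization also moved the share of higher genes among calls from 53.1% to 37.1% with palmitate, 67.1% to 43.5% with IL-1β and 52.4% to 38.7% with both. Where not shown by fewer samples, the cause was not tested. Depth limits Tgfb1 most, with 562 counts in its lowest library.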
